A study of Mus musculus with 6 samples.

Results

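The transcription factor and receptor genes that mark the granulocyte series were followed through 6 libraries labelled bone or osteoblasts. The list held 10 genes: *Cebpa*, *Cebpb*, *Cebpe*, *Gfi1* and *Spi1* for the transcription factors, and *Csf3r*, *Cxcr2*, *Cxcr4*, *Fpr1* and *Fpr2* for the receptors. Members were found by gene name, and 7 of the 10 had a feature of that name among 48733 named genes. For *Csf3r*, *Cxcr2* and *Fpr2* no named feature was used, and the unnamed features that lie over those genes are described by their position instead.

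RNA-seq was carried out on mice of the Collaborative Cross strain CC016/GeniUnc, an inbred line with no engineered allele and no drug treatment of the animals named. The 3 libraries labelled bone were from cortical bone of the femur whose marrow had been spun out. The 3 libraries labelled osteoblasts were from bone marrow stromal cells grown for 8 days with dexamethasone at 10 nM, ascorbic acid at 50 µg/ml and beta-glycerophosphate at 10 mM, a mixture that makes stromal cells lay down mineral. Each label was given as 3 biological replicates, the femora of 3 mice supplying both the bone and the marrow cells, and which bone library shares a mouse with which culture is not given in the sources used here. Such marrow cultures are not sorted for osteoblasts, and cortical bone keeps its blood vessels and the cells in its pores. The sex and age of these animals are not given there either, and values are given below by label and replicate number, as bone 1 or osteoblasts 3.

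Granulocytes arise in the marrow from progenitors that pass through promyelocyte and myelocyte stages before neutrophils are released to blood. PU.1, encoded by *Spi1*, and the C/EBP family start and carry this program, and the repressor GFI1 turns it away from the monocyte fate. G-CSF and its receptor CSF3R drive the output of neutrophils, CXCR4 holds them in the marrow against CXCR2, and the formyl peptide receptors steer mature cells to bacterial products. Macrophages share PU.1, C/EBPα, C/EBPβ, CXCR4 and FPR1 with granulocytes, while C/EBPε is known as a factor of late granulocyte stages.

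The libraries did not divide by label in their blood cell genes, and this bears on every comparison below. *Hbb-bt*, an adult beta globin gene, stood at 7.05, 3.58 and 34838 FPKM in bone 1 to 3 and at 3.43, 34268 and 48650 FPKM in osteoblasts 1 to 3, where FPKM is the number of fragments scaled to the length of the transcript and the depth of the library. It was above 1000 FPKM in bone 3, osteoblasts 2 and osteoblasts 3, called the globin-high libraries here. This is a division by a measured gene and not a group of the study, so orders of libraries by it are given as a description without a test. The labels were kept as deposited. Whether each label belongs to its library was not tested, and if labels were exchanged, every value given as osteoblasts minus bone would not be a difference between bone and cultured osteoblasts. Of 16 neutrophil markers listed 15 were named, and all 15 were higher in each globin-high library than in each of the others. Of 12 macrophage markers listed only 6 were named, and all 6 were lower. Of the 12112 genes tested, 38.4% were higher in this way and 16.9% lower. Scaled to the sum of named features, the shares were 21.4% and 48.6%. Genes were tested at a mean FPKM of at least 1, which some of the neutrophil markers reached through the globin-high libraries alone. The 5 named erythroid markers include *Hbb-bt*, whose order the division itself fixes, and the other 4 were higher in each globin-high library too, *Alas2*, the heme synthesis enzyme of red cells, at 732 to 910 FPKM against no more than 0.208 FPKM. The neutrophil list summed to 16095 to 19749 FPKM in the globin-high libraries against 22.6 to 110 FPKM in the others, where *Elane* and *Ctsg*, the serine protease genes of early granules, were listed at 0. *S100a9*, a calcium-binding protein gene of neutrophils, was at 4775 to 8033 FPKM in the former and at no more than 0.922 FPKM in the latter. In those other libraries the highest of the list were *Mmp9*, at 2.96 to 64.8 FPKM, and *Chil3*, at 13.5 to 33.7 FPKM. The macrophage list summed to 403 to 533 FPKM against 1397 to 2762 FPKM, and none of its named markers was at 0 anywhere. Its highest gene *C1qa*, a chain of complement C1q, was at 173 to 241 FPKM against 575 to 1156 FPKM. Among the 7 named B-cell markers *Cd79a*, *Cd79b*, *Igll1* and *Pax5* were at 0 in the other 3 libraries, and the list summed to 7.27 to 20.8 FPKM there against 130 to 141 FPKM. Nearly all of that lower sum was *Ebf1*, the only marker of the list with a mixed order. It was at 20.5, 7.27 and 11.0 FPKM in bone 1 to 3 and at 9.68, 14.7 and 11.8 FPKM in osteoblasts 1 to 3. *Sost*, the osteocyte gene for sclerostin, was at 0.176, 0.0661 and 18.8 FPKM in bone 1 to 3 and at 0.198, 22.7 and 15.8 FPKM in osteoblasts 1 to 3, so both labels held libraries with and without it. The other osteocyte markers did not share this order. *Dmp1*, a matrix protein gene of osteocytes, was at 104, 50.0 and 24.2 FPKM in bone 1 to 3 and at 127, 22.5 and 22.9 FPKM in osteoblasts 1 to 3, *Phex* and *Pdpn* were mixed, and the list summed to 48.2 to 53.5 FPKM in the globin-high libraries against 57.1 to 135 FPKM. *Col1a1*, the main collagen gene of bone, was between 1499 and 3332 FPKM in all 6. Of the 7 named osteoblast markers 1 was higher in each globin-high library, 2 were lower and 4, with *Col1a1*, were mixed. *Ibsp* was at 43.1 to 91.3 FPKM in the globin-high libraries against 986 to 1278 FPKM. *Bglap2* was at 1641 to 1959 FPKM in them against 264 to 513 FPKM. Each library held an estimated 13565300 to 22583800 aligned read pairs. By this estimate the level of 3 read pairs on 1 kb was 0.133 to 0.221 FPKM, a floor for counting error alone. Unnamed features made up 71.5% of the FPKM in bone 2 and 65.0% in osteoblasts 1 against 27.4% to 30.7% in the others.

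The marker lists are plotted by library on a logarithmic axis.

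**Figure D1:**
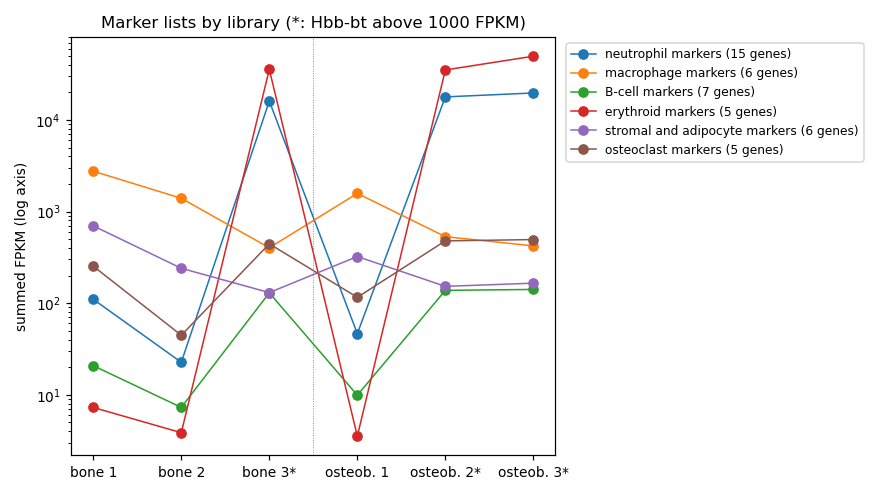
Summed FPKM (log axis) of 6 lists of cell type markers in the 6 libraries, with 1 line per list and an asterisk on libraries with *Hbb-bt* above 1000 FPKM. The neutrophil, erythroid and B-cell lines peak in bone 3, osteoblasts 2 and osteoblasts 3, and the macrophage line is lowest in those libraries.

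Promoter sequences of RefSeq (GRCm38.p6, the build of the files) were read for the members from 250 bases before to 50 bases after the annotated start. The table held 9 promoters for 8 of the 10 members, with none for *Cebpe* or *Spi1*. The window of *Csf3r* lies at a downstream start inside the gene, whose RefSeq span begins at 126023441. *Cebpa* and *Cebpb* are shown because these related genes had unlike profiles, and *Gfi1*, *Csf3r* and *Cxcr2* because their levels, or the levels of the features over them, were high in the same libraries. Capitals mark matches on either strand to words of the factors in the list or to TATAAA: TTGCNNAA for C/EBP in *Gfi1*, GAGGAA or its reverse complement for PU.1 in *Csf3r* and *Cxcr2*, and TATAAA in *Cebpa* and *Cebpb*. The *Cebpa* window is chr7:35119043-35119342 on the plus strand, *Cebpb* chr2:167688665-167688964 on the plus strand, the upstream start of *Gfi1* chr5:107725756-107726055 on the minus strand, *Csf3r* chr4:126024409-126024708 on the plus strand and *Cxcr2* chr1:74153744-74154043 on the plus strand.
Cebpa: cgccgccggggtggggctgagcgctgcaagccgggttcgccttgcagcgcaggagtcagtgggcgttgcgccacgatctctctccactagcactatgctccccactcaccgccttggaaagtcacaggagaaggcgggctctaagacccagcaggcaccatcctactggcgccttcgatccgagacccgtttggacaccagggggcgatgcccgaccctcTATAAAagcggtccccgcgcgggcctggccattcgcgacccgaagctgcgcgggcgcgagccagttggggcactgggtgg
Cebpb: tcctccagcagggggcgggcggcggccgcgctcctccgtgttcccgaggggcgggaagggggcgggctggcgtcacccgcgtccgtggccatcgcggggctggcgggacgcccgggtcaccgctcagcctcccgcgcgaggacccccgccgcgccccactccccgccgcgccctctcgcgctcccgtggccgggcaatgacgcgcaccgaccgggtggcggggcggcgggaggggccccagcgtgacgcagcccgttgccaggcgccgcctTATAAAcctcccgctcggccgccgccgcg
Gfi1: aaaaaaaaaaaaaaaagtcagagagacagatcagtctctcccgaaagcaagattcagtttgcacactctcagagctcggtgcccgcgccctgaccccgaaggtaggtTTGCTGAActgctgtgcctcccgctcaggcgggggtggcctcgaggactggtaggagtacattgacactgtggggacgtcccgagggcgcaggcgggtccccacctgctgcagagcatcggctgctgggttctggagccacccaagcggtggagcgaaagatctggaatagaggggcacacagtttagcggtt
Csf3r: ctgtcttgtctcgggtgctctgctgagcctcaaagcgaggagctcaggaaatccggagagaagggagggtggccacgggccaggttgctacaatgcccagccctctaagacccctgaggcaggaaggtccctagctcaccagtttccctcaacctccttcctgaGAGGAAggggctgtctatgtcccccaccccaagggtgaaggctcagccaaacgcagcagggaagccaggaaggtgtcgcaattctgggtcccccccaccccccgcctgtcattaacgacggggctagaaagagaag
Cxcr2: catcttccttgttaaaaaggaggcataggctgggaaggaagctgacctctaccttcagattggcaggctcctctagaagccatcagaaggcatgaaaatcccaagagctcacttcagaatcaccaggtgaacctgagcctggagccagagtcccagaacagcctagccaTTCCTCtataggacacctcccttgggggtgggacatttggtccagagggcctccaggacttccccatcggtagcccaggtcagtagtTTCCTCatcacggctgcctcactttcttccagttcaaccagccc

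Each word was searched on both strands of all 32851 promoters of the table. TTGCNNAA was in 10.8% of them and, among the members, only in the first promoter of *Gfi1*, as TTGCTGAA from base -143 counted from the start. The full palindrome TTGCGCAA, which TTGCNNAA includes, was in 0.183% and in no member. GAGGAA was in 28.3% and in 3 members, *Csf3r* from base -86 of its downstream start, *Cxcr2* from -81 and 7, and *Fpr2* from -19. Its longer form GAGGAAGT was in 3.20% of all promoters and in no member. AAATCA, the word of GFI1, was in 14.0% and only in *Fpr1* among the members, from bases -143 and -114. TATAAA was in 13.6% and in 5 members, and only *Cebpa* and *Cxcr4* had it from base -30. In *Cebpb* the word began at base 22, past the annotated start. A match describes letters in this window and not a bound site.

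Base composition set the C/EBP promoters apart from those of the formyl peptide receptors. GC content was 80.7% for *Cebpb* with 50 CpG and 67.3% for *Cebpa* with 29 CpG, where the median promoter had 52.7% and 7 CpG. It was 40.0% for *Fpr1* and 39.3% for *Fpr2*, each with 1 CpG. *Csf3r*, *Cxcr2*, *Cxcr4* and both *Gfi1* promoters lay between, from 54.0% to 60.7%.

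Among the C/EBP genes, *Cebpa* was spread widely within both labels, *Cebpb* was the most even and *Cebpe* was present or near 0. No difference between the labels passed the test for any of the 7 members, and neither did any other gene. *Cebpa*, whose protein C/EBPα is needed to enter the granulocyte and monocyte path and also works in fat cells, is a gene of Chr. 7 (35119293-35121928, plus strand). It was at 79.7, 35.2 and 1.76 FPKM in bone 1 to 3 and at 3.56, 22.9 and 19.3 FPKM in osteoblasts 1 to 3. Bone 1 was highest and bone 3 lowest, a range of 45.3-fold within the bone label, and the osteoblast values all lay inside the range of bone. The place of *Cebpa* within its library followed the same order: it lay above 95.0% and 93.4% of genes at 1 FPKM or more in bone 1 and 2, but above only 15.8% in bone 3 and 30.9% in osteoblasts 1. The low libraries were of both kinds, bone 3 being globin-high and osteoblasts 1 not. *Gm45091*, on the opposite strand, overlapped 313 bp of *Cebpa* and did not exceed 1.27 FPKM.

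*Cebpb*, whose protein C/EBPβ takes over in emergency granulopoiesis and is active in macrophages and early osteoblasts, lies on Chr. 2 (167688915-167690418, plus strand). It was at 13.4, 7.75 and 6.85 FPKM in bone 1 to 3 and at 10.8, 7.62 and 5.93 FPKM in osteoblasts 1 to 3. All 6 libraries lay within 2.26-fold, the globin-high libraries were all below the others, osteoblasts 2 only just below bone 2, and the labels overlapped. *Ube2v1* on the opposite strand shares 908 bp with *Cebpb* and was at 32.8 to 64.2 FPKM, and since the library kit did not mark strand, reads in the shared stretch cannot be told apart.

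*Cebpe*, the gene of the late granulocyte factor C/EBPε, lies on Chr. 14 (54710363-54712174, minus strand). It was at 0, 0.111 and 61.3 FPKM in bone 1 to 3 and at 0.0599, 65.7 and 61.8 FPKM in osteoblasts 1 to 3. The 3 globin-high libraries differed by little among themselves, and the other 3 were under the level of 3 read pairs. Within the globin-high libraries *Cebpe* lay above 94.0% to 94.3% of genes at 1 FPKM or more.

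The proportions of the C/EBP genes therefore differed from library to library. *Cebpb* over *Cebpa* was 0.168 and 0.220 in bone 1 and 2 and 0.333 and 0.307 in osteoblasts 2 and 3, but 3.89 in bone 3 and 3.02 in osteoblasts 1. *Cebpe* over *Cebpa* was 34.9 in bone 3 and 2.87 and 3.20 in osteoblasts 2 and 3. The gap between bone 3 and the other globin-high libraries came from *Cebpa*, since their *Cebpe* levels were 61.3 to 65.7 FPKM.

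*Gfi1* followed *Cebpe* at a lower level. This zinc finger repressor gene, which neutrophil differentiation requires, lies on Chr. 5 (107716657-107726036, minus strand). It was at 0.101, 0.0192 and 8.44 FPKM in bone 1 to 3 and at 0.0413, 7.55 and 10.1 FPKM in osteoblasts 1 to 3. The globin-high libraries were again the only ones above the level of 3 read pairs, and *Gfi1* over *Cebpe* was 0.138, 0.115 and 0.164 in bone 3, osteoblasts 2 and osteoblasts 3. *A430072P03Rik*, on the opposite strand over 880 bp of *Gfi1*, was at no more than 2.16 FPKM and was itself above 1 FPKM only in the globin-high libraries, so a share of the reads cannot be assigned.

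*Spi1*, the gene of PU.1, an ETS factor of granulocytes, macrophages, B cells and osteoclasts, was well expressed in all 6 libraries. It lies on Chr. 2 (91082390-91115756, plus strand) and was at 38.6, 18.7 and 48.4 FPKM in bone 1 to 3 and at 24.3, 50.8 and 48.6 FPKM in osteoblasts 1 to 3. The globin-high libraries were highest, though the full range was 2.72-fold, and *Spi1* lay above 85.9% to 92.3% of the genes at 1 FPKM or more. When each library was scaled to the sum of its named features, *Spi1* was at 34.1 to 42.2 in all 6 and the globin-high libraries no longer lay above the others. *Spi1* over *Cebpa* was 0.484 and 0.531 in bone 1 and 2 and 27.5 in bone 3, and it was 6.83, 2.22 and 2.52 in osteoblasts 1 to 3.

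The levels of all 7 named members and of the 3 unnamed features are plotted by library.

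**Figure D2:**
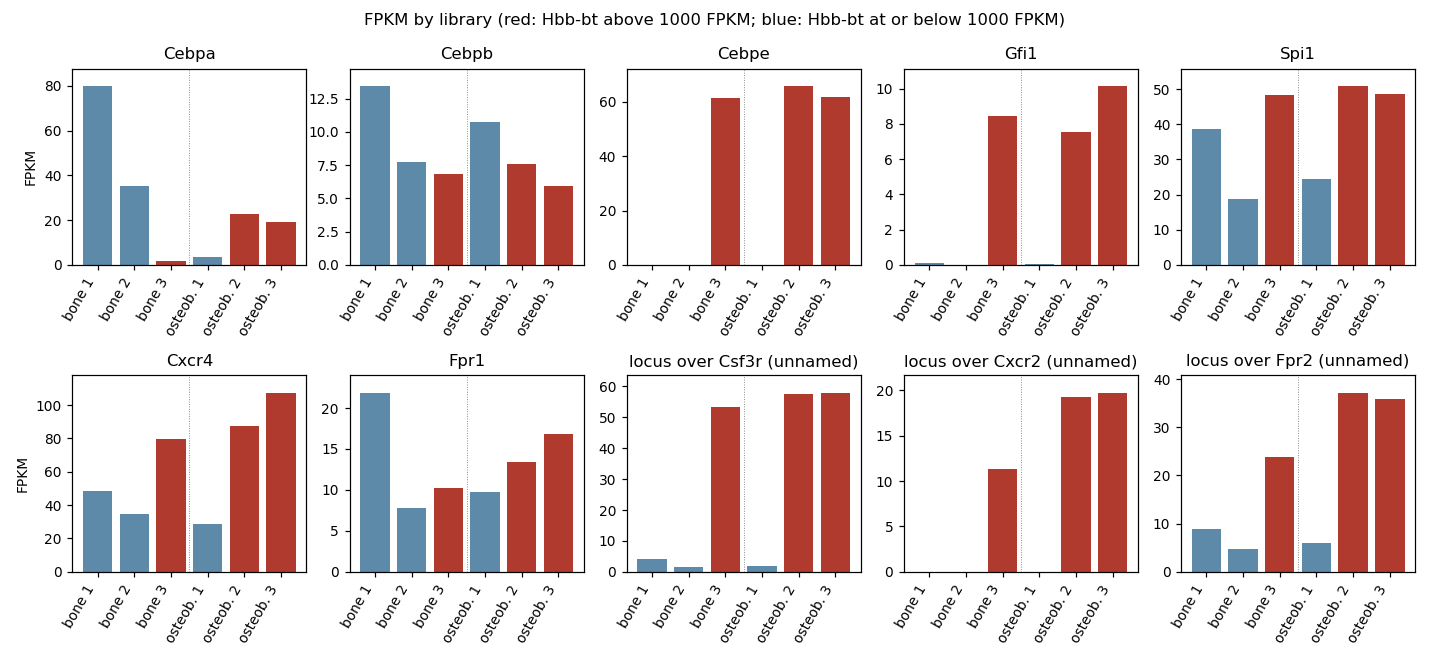
FPKM (linear axes from 0) of the 7 named genes and the 3 unnamed features in each library, with 1 bar per library, red for *Hbb-bt* above 1000 FPKM and blue otherwise, and a dotted line between the labels. *Cebpe*, *Gfi1* and the features over *Csf3r*, *Cxcr2* and *Fpr2* are high in the red bars only, *Cebpb* is highest in bone 1 and osteoblasts 1, and *Cebpa* falls outside both patterns.

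Of the receptors, *Cxcr4* and *Fpr1* carried a name. *Cxcr4*, the receptor of CXCL12 that keeps neutrophils and stem cells in the marrow, lies on Chr. 1 (128588199-128592293, minus strand). It was at 48.2, 35.0 and 79.4 FPKM in bone 1 to 3 and at 28.9, 87.7 and 107 FPKM in osteoblasts 1 to 3. The globin-high libraries were highest, but the other 3 held clear expression, and *Cxcr4* lay above 89.0% to 96.6% of genes at 1 FPKM or more. It was the highest of the 7 genes per length in 4 libraries, with *Cebpa* above it in bone 1 and 2. *Cxcr4* over *Spi1* stayed between 1.19 and 2.20 in the 6 libraries, and the order by *Hbb-bt* was lost under scaling to the named sum, where *Cxcr4* ran from 48.2 to 84.5.

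*Fpr1*, a receptor of N-formyl peptides on neutrophils and macrophages, lies on Chr. 17 (17876471-17883940, minus strand). It was at 21.8, 7.82 and 10.2 FPKM in bone 1 to 3 and at 9.80, 13.4 and 16.9 FPKM in osteoblasts 1 to 3. Bone 1 was highest and bone 2 lowest, the labels overlapped, and the globin-high libraries lay in the middle. Under scaling to the named sum the globin-high libraries were lowest, at 7.59 to 13.3 against 14.3 to 23.8. *Fpr1* over *Spi1* was between 0.211 and 0.565, lowest in bone 3 and highest in bone 1.

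The other 3 receptors were read only through unnamed features, whose values include any other transcript that was assembled into them. The feature over *Csf3r*, the G-CSF receptor gene, covers Chr. 4 from 126022999 to 126044440 on the plus strand with *Gm32908*. It was at 4.18, 1.66 and 53.3 FPKM in bone 1 to 3 and at 1.84, 57.6 and 57.8 FPKM in osteoblasts 1 to 3. A second unnamed feature on the minus strand (126036311 to 126070314), which holds *Mrps15* and *Oscp1*, overlaps its end and was at 9.66 to 56.2 FPKM, so their reads are not separable by strand.

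Over *Cxcr2*, the receptor of the CXC chemokines that draw neutrophils out of the marrow, lay a feature with no other RefSeq gene, on Chr. 1 from 74153670 to 74161246. It was listed at 0 in bone 1, bone 2 and osteoblasts 1, and was at 11.3 FPKM in bone 3 and 19.2 and 19.7 FPKM in osteoblasts 2 and 3. The feature over *Fpr2* spans Chr. 17 from 17887824 to 17971677. It takes in *Fpr3*, *Gm5966*, *Gm7531*, *Gm7535* and *Gm9481* as well, so its values are not those of *Fpr2* alone. It was at 8.79, 4.84 and 23.8 FPKM in bone 1 to 3 and at 6.03, 37.1 and 35.9 FPKM in osteoblasts 1 to 3. All 3 features were higher in each globin-high library than in each other library, and within each label their values spanned low and high. The differences between labels, osteoblasts minus bone on log2(FPKM + 1), were 1.24 for the feature over *Csf3r*, 1.697 for *Cxcr2* and 0.93 for *Fpr2*. The two-sided exact permutation p was 0.5, 0.4 and 0.3 (n = 3 per label), where 0.1 is the smallest p that the design allows.

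The design compares the labels bone and osteoblasts, which asks whether these genes are expressed differently in cortical bone and in cultured osteoblasts. None of the 7 members passed the threshold of 0.05 in limma with Benjamini-Hochberg adjustment over 12112 genes, and the adjusted p was 0.999 for each. The background was the same: 0% of the 12112 genes were called higher and 0% lower, while 17 had an unadjusted p under 0.05. *Cebpe* had the largest difference of the members, 2.00 ± 1.90 (SE) on log2(FPKM + 1) with osteoblasts higher, from 20.5 ± 35.4 FPKM (SD, n = 3) in bone and 42.5 ± 36.8 FPKM (SD, n = 3) in osteoblasts. *Gfi1* differed by 1.08 ± 1.08 (SE), from 2.85 ± 4.84 FPKM (SD, n = 3) to 5.91 ± 5.24 FPKM (SD, n = 3). *Cebpa* was lower under the osteoblast label by -0.62 ± 1.18 (SE), from 38.9 ± 39.1 FPKM (SD, n = 3) to 15.2 ± 10.3 FPKM (SD, n = 3). For the other 4 the difference was -0.17 ± 0.45 (*Cebpb*), 0.25 ± 0.56 (*Spi1*), 0.34 ± 0.64 (*Cxcr4*) and 0.10 ± 0.50 (*Fpr1*). In every case the difference was within about 1 SE of 0, and this scale understates changes of low values. Exact permutation tests of single genes, two-sided with n = 3 per label, gave p between 0.4 for *Cebpe* and 0.9 for *Fpr1*.

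The labels overlapped for all 7 members, where 0.916% of the 12112 genes had labels that did not overlap, 0.479% with osteoblasts higher and 0.438% with osteoblasts lower. The median difference of the members was 0.25, with 5 above 0 and 2 below, and that of all genes tested was 0.12, with 7586 above 0 and 4526 below. The outcome for *Cebpe* depended on which libraries were kept. Without bone 3 its difference was 3.96 with an adjusted p of 0.0489 (limma, Benjamini-Hochberg). Without osteoblasts 1 it was 3.98 with an adjusted p of 0.00968 (limma, Benjamini-Hochberg), while leaving out any of the other 4 gave 0.98 to 1.06. The SE of limma was 0.97 without bone 3 and 0.90 without osteoblasts 1, against 1.90 with all libraries. Yet the label left whole kept its SD on log2(FPKM + 1), 3.43 for osteoblasts or 3.40 for bone. *Cebpe* also passed the filter through the globin-high libraries alone, so no difference between the labels is read from these p. *Cebpe* was 1 of many genes in those fits, which called 66 higher and 11 lower without bone 3, and 262 higher and 38 lower without osteoblasts 1. *Gfi1* came to 2.13 and 2.15 without the same libraries, with adjusted p of 0.158 and 0.0691. The neutrophil, erythroid and B-cell markers of bone 3 and osteoblasts 1 are those given above, and their part in these differences was not tested. In bulk RNA a smaller number of granulocytes and less RNA in each of them cannot be told apart.

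**Figure D3:**
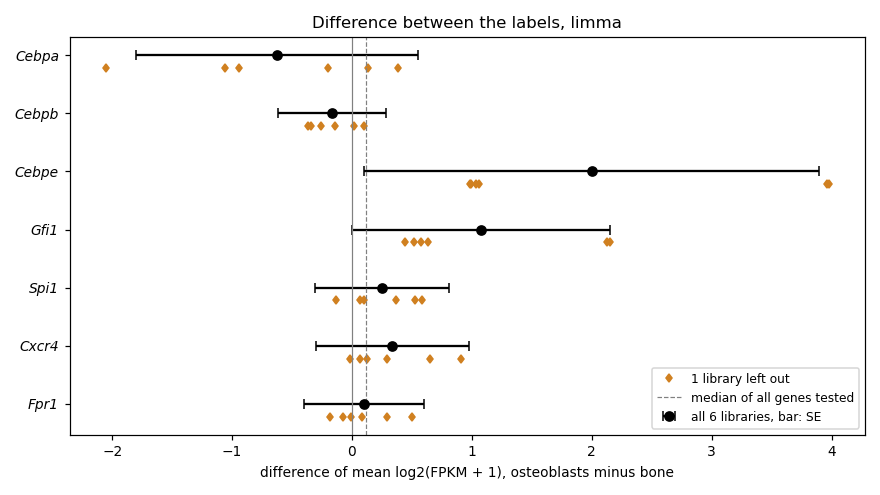
Difference of mean log2(FPKM + 1), osteoblasts minus bone, for the 7 named genes, with black points and SE bars from limma on all 6 libraries, orange diamonds for the value without 1 library each, and a dashed line at the median of all genes tested, 0.12. *Cebpe* and *Gfi1* reach 3.98 and 2.15 when osteoblasts 1 is left out, and the diamonds of *Cebpa*, *Cebpb*, *Spi1*, *Cxcr4* and *Fpr1* lie on both sides of 0.

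Most of the variation of the members was within the labels. The SD within a label on log2(FPKM + 1) ran from 0.43 for *Cebpb* to 3.41 for *Cebpe*, with a median of 0.82 over the members against 0.59 over all genes tested. *Cebpe*, *Cebpa* and *Gfi1* were above 99.3%, 97.0% and 96.2% of the genes tested, whereas *Cebpb* was above 24.1% and *Fpr1* above 46.4%. By the order of the globin-high libraries, 4 of the 7 members (*Cebpe*, *Gfi1*, *Spi1* and *Cxcr4*) had all 3 above the other libraries, as 38.4% of the genes tested did. *Cebpe* and *Gfi1* passed the filter on a mean FPKM of at least 1 through the globin-high libraries alone, so nothing is read from that count. *Cebpb* alone had all 3 below, as 16.9% of the genes did, and *Cebpa* and *Fpr1* were mixed. The named-sum scaling left 2 above (*Cebpe* and *Gfi1*, with 21.4% of all genes) and 2 below (*Cebpb* and *Fpr1*, with 48.6%). Scaling to the 75th percentile gave 4 above and 1 below, as in FPKM, with 37.1% and 32.1% of all genes.

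**Figure D4:**
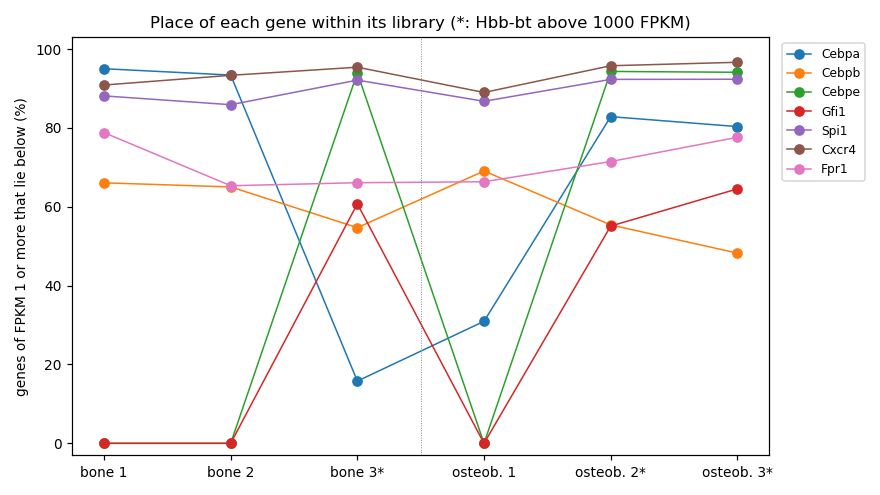
Percentage of genes at 1 FPKM or more that lie below each of the 7 named genes within the same library, with 1 line per gene and an asterisk on libraries with *Hbb-bt* above 1000 FPKM. *Cxcr4* and *Spi1* stay near the top in all 6, *Cebpe* moves between 0 and 94.3%, and *Cebpa* drops to 15.8% in bone 3 and 30.9% in osteoblasts 1.

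The genes whose profiles lay nearest to each member were found by the root mean square difference of log2(FPKM + 1) over the 6 libraries, with each gene centred on its own mean. Nearest to *Cebpe* were *Tspo2* (0.0566), *Gata1*, a factor of red cells, megakaryocytes, eosinophils and mast cells (0.0599), and *Cd79b*, a B-cell receptor chain (0.0815). *Gfi1* was nearest to *AA467197* (0.0587), *Igkv6-23*, a kappa light chain segment (0.0638), and *Gsdma3* (0.0871). The profile of *Spi1* was closest to *Eif4h* (0.0152), *Gm17828* (0.0290) and *Tomm22* (0.0315), of which *Eif4h* serves translation and *Tomm22* mitochondrial import in all cells. *Cebpb* had *Mcc* (0.0677), *Tsen34* (0.0730) and *Gnb5* (0.0753) beside it, *Fpr1* had *Plcb4* (0.0724), *Gm28551* (0.0744) and *Utrn* (0.0761), and *Cxcr4* had *5830408C22Rik* (0.0623), *Gm45223* (0.0700) and *Gm20342* (0.0706). No gene came as close to *Cebpa*, whose nearest were *Tmem203* (0.764), *Gm10925* (0.897) and *Dmxl1* (0.923). Among the members themselves *Spi1* and *Cxcr4* were the closest pair (0.308) and *Cebpa* and *Cebpe* the farthest (3.86). These distances are descriptions over 6 libraries that fall into 2 sets by globin.

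Other genes of the pathway were taken from lists, and none of their tested members passed the limma threshold in either direction. Of 15 other myeloid transcription factors 13 were named and 12 tested, with a median difference of 0.42. In FPKM, 8 of the 12 were higher in all globin-high libraries, as 38.4% of all genes tested were. Some of the 12, such as *Gfi1b* and *Myb*, passed the filter on a mean FPKM of at least 1 through those libraries alone, so nothing is read from this count. *Gfi1b*, the erythroid and megakaryocyte relative of *Gfi1*, was listed at 0 in bone 1, bone 2 and osteoblasts 1, and was at 61.2 FPKM in bone 3 and 55.8 and 53.2 FPKM in osteoblasts 2 and 3. Per length it was thus above *Gfi1* in each globin-high library. *Irf8*, the factor of the monocyte and dendritic fate, was at 20.1, 10.9 and 42.6 FPKM in bone 1 to 3 and at 15.9, 44.3 and 38.6 FPKM in osteoblasts 1 to 3. *Lmo2*, a partner of GATA factors, was at 9.14 to 17.4 FPKM in the other 3 libraries and at 64.4 to 73.6 FPKM in the globin-high ones. *Myb*, a factor of progenitors, was at no more than 0.0158 FPKM in the former and at 17.6 to 25.6 FPKM in the latter.

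The growth factor receptors went in both directions. Of 8 listed, 7 were named and tested with a median difference of 0.29. *Csf1r*, the M-CSF receptor of macrophages and osteoclasts, was at 363, 179 and 46.5 FPKM in bone 1 to 3 and at 196, 51.7 and 44.0 FPKM in osteoblasts 1 to 3, the reverse of the feature over *Csf3r*. It is also in the list of macrophage markers. *Csf2ra*, the alpha chain of the GM-CSF receptor, stayed between 10.1 and 25.6 FPKM in all 6. *Kit*, the stem cell factor receptor, was at 1.59 to 4.06 FPKM in the other libraries and at 8.08 to 15.7 FPKM in the globin-high ones. The kinases and STAT factors that act below CSF3R were even by comparison: 6 of 9 were named and tested, with a median difference of 0.15, and 4 of the 6 were mixed in order. *Stat3*, the main STAT of G-CSF signalling, was at 28.9 to 54.7 FPKM, *Lyn* at 25.2 to 48.2 FPKM and *Jak1* at 20.3 to 41.1 FPKM.

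The ligands of these receptors were unevenly represented. Of 11 listed, 9 were named and 4 passed the filter on a mean FPKM of at least 1, and since that filter can be passed through the globin-high libraries alone, nothing is read from their direction. *Camp*, whose cathelicidin peptide binds the formyl peptide receptors and which is also a neutrophil marker, was at 1.103, 0 and 2159 FPKM in bone 1 to 3 and at 0, 2217 and 2296 FPKM in osteoblasts 1 to 3. *Pf4*, a platelet chemokine gene, is in the list without a claim that it binds these receptors. It was at 93.3, 41.1 and 293 FPKM in bone 1 to 3 and at 72.1, 366 and 290 FPKM in osteoblasts 1 to 3. *Ppbp*, the platelet source of a CXCR2 ligand, was listed at 0 in bone 1, bone 2 and osteoblasts 1 and was at 162, 249 and 272 FPKM in bone 3 and osteoblasts 2 and 3. *Anxa1*, an anti-inflammatory ligand of the formyl peptide receptors, was at 264, 150 and 75.5 FPKM in bone 1 to 3 and at 116, 128 and 179 FPKM in osteoblasts 1 to 3. The 5 ligands under the filter, named here after their values were seen, were *Csf3*, *Cxcl1*, *Cxcl2*, *Cxcl3* and *Cxcl5*. The highest value of any of them was 1.62 FPKM, for *Cxcl5* in osteoblasts 2. *Cxcl12*, the ligand gene of CXCR4, was listed but had no named feature.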

How the data were processed

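Total RNA of 6 samples was sequenced as 75 bp pairs with a TruSeq RNA v2 kit, which does not mark strand. By the study's methods and the submitters' processing notes, the authors aligned with HISAT2 2.0.5 to GRCm38, used SAMtools 1.7, and assembled and quantified with StringTie 1.3.3. The authors deposited FPKM, scaled to all aligned reads of a library, for each feature of each library. The deposited TPM are those values rescaled within a library and served as an alternative. The deposited coverage is the mean read depth over a feature, and its ratio to FPKM gave an estimate of the number of aligned pairs. No read counts were used, so single FPKM values carry no interval.

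Groups and replicate numbers came from the labels, and no library was moved. Rows with 1 name were summed. Unnamed features over a gene were found by coordinates in the RefSeq table of GRCm38.p6. Values were tested as log2(FPKM + 1). The 12112 genes whose FPKM averaged 1 or more across all 6 libraries entered a comparison of the labels with limma 3.58.1 in R 4.3.3 (lmFit, eBayes with a trend), Benjamini-Hochberg adjustment and a threshold of 0.05. Single genes also had two-sided exact permutation tests. The fit was tested on simulated data. The alternatives were a pseudocount of 0.1, no filter, an average of 5 or more, TPM, scaling to named features or to the 75th percentile, no trend, a replicate block and leaving out each library. The order of libraries under the 75th percentile and the ratios of *Cxcr4* and *Fpr1* to *Spi1* and of *Gfi1* to *Cebpe* were added after the data were seen.

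The genes named are the members, *Hbb-bt*, the 3 nearest profiles of each member, features that overlap a member, and, as examples of a list, genes among the 4 of it with the highest FPKM in any library. *Elane*, *Ctsg*, *Mmp9*, *Chil3*, *Igll1*, *Pax5* and *Pdpn* were named in addition, after their values were seen. *Cxcl12* was named as a listed gene without a named feature. The members and lists were chosen with earlier results of these data known. Python 3.11.15 with pandas 2.3.3, numpy 2.4.6, scipy 1.17.1 and matplotlib 3.10.9 was used for the other steps.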

Additional observations from a re-analysis of the deposited data

How the results depend on the processing

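The 7 differences between the labels were recomputed 97 times under other settings. Of these, 85 kept their sign and their side of the threshold, 10 changed sign and 2, both of *Cebpe*, passed it. For the reasons given above, no difference between the labels is read from those of *Cebpe*. Leaving out 1 library at a time gave -2.05 to 0.38 for *Cebpa*, -0.37 to 0.10 for *Cebpb*, 0.98 to 3.98 for *Cebpe*, 0.44 to 2.15 for *Gfi1*, -0.14 to 0.59 for *Spi1*, -0.020 to 0.91 for *Cxcr4* and -0.19 to 0.50 for *Fpr1*. It gave 0 to 262 genes called higher and 0 to 38 called lower (limma, Benjamini-Hochberg), and only leaving out osteoblasts 1 (262 and 38) or bone 3 (66 and 11) made any call. The sign of *Cebpa* turned without bone 1 (0.38) or osteoblasts 1 (0.14). That of *Cebpb* turned without bone 1 (0.10) or osteoblasts 3 (0.014), that of *Spi1* without bone 2 (-0.14) and that of *Cxcr4* without osteoblasts 3 (-0.020). *Fpr1* turned without bone 2 (-0.19), bone 3 (-0.012) or osteoblasts 3 (-0.072), and also with scaling to the sum of named features (-0.079). The cause was not tested. That scaling changed the number of members with all globin-high libraries above the others from 4 to 2, and below from 1 to 2. It moved the median difference of all genes from 0.12 to -0.03. A mean FPKM of at least 5 removed *Gfi1*, so it has no value there. The replicate numbers were not taken as pairs, since the study's methods state no pairing in a test. Deviations of same-numbered libraries from their label means correlated at 0.84, -0.75 and 0.83 for numbers 1 to 3. Those of bone 2 with osteoblasts 1 correlated at 0.80 and of bone 3 with osteoblasts 2 at 0.83, and the remaining unlike-numbered ones at -0.91 to -0.72. These values cannot settle a pairing, because unlike numbers reach the same level as like ones. With a replicate block 46 genes were called higher and 3 lower, no member was among them, and *Cebpe* had an adjusted p of 0.128. Depth limits *Cebpe*, *Gfi1* and the feature over *Cxcr2* in bone 1, bone 2 and osteoblasts 1, where values lie under the level of 3 read pairs and no ratio was formed.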

Other observations

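Other surface receptors of neutrophils did not share 1 order of the libraries. Of 23 listed, 18 were named and 13 had a mean FPKM of at least 1, and of these 6 were higher in every globin-high library, 1 was lower and 6 were mixed, where 38.4% of all genes tested were higher and 16.9% lower, so these counts are near those of all genes. Some of the 13 passed that filter through the globin-high libraries alone. None of the 13 passed the limma threshold between the labels, and the median difference was 0.12, that of all genes tested being 0.12 as well. *Itgb2*, the beta chain of the leukocyte integrins, was at 78.0, 42.4 and 95.9 FPKM in bone 1 to 3 and at 44.6, 94.7 and 97.3 FPKM in osteoblasts 1 to 3. Its partner *Itgam*, the alpha chain of Mac-1, was at 29.6 to 67.8 FPKM with no such order in FPKM. Neither gene is given here under scaling to the sum of named features, which removed the order of *Spi1* and *Cxcr4*. *Trem1*, an amplifier of myeloid inflammation, was at 1.78 to 2.34 FPKM in bone 1, bone 2 and osteoblasts 1, and at 49.9 to 57.4 FPKM in the other libraries. *Clec4d*, a C-type lectin receptor of myeloid cells, ran the opposite way. It was at 85.0, 80.7 and 1.67 FPKM in bone 1 to 3 and at 79.3, 1.94 and 1.88 FPKM in osteoblasts 1 to 3. The 4 relatives *Fpr-rs3*, *Fpr-rs4*, *Fpr-rs6* and *Fpr-rs7* of *Fpr1*, named after their values were seen, were listed at 0 in all 6 libraries.

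Osteoclast genes, which need PU.1 and M-CSF signalling, were also uneven within the labels. *Acp5*, the gene of tartrate-resistant acid phosphatase, was at 111, 14.9 and 325 FPKM in bone 1 to 3 and at 49.0, 342 and 342 FPKM in osteoblasts 1 to 3. *Ctsk*, the gene of cathepsin K, was at 137, 29.5 and 116 FPKM in bone 1 to 3 and at 65.0, 133 and 149 FPKM in osteoblasts 1 to 3, so bone 1 lay among the globin-high libraries for *Ctsk* but below them for *Acp5*. Neither gene passed the limma threshold between the labels.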
